A study of Danio rerio with 2 samples.

Results

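Among the gad2-positive barcodes of the male zebrafish hypothalamus, those that also carried dkk1b and inhbaa transcripts were examined. gad2 encodes a glutamate decarboxylase that makes GABA, dkk1b a secreted antagonist of Wnt signalling, and inhbaa the activin beta A subunit. Members were selected on these 3 genes: a barcode needed 1000 or more unique molecular identifiers (UMIs), 1 or more gad2 UMI, and either 2 or more dkk1b UMIs or 1 or more UMI of both dkk1b and inhbaa. The rule was met by 250 of 15222 barcodes with 1000 or more UMIs, 125 in each library, out of 20968 barcodes deposited. The other 6317 gad2-positive barcodes, 2844 in WT and 3473 in CCK1/2-KO, served for comparison. Their median was 3 gad2 UMIs in each library, against 24 and 23 in members. Of these others, 656 and 587 had 20 or more UMIs of erythrocyte genes, against 18 and 14 members. Oligodendrocyte genes reached 3 or more UMIs in 1202 and 806 of them, against 35 and 19 members. The others therefore cannot be taken as GABAergic neurons throughout.

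Hypothalami were taken from male zebrafish (AB strain) aged 6 months, either WT or carrying CRISPR/Cas9 deletions in both cholecystokinin genes (cck1-/-;cck2-/-, named CCK1/2-KO). Tissue of 30 fish was pooled per group, dissociated with trypsin, EDTA and DNase II, and profiled with 10X Genomics droplets. Each group gave 1 library, so genotype, fish pool, dissociation and library run cannot be told apart, no p-value is given, and every genotype ratio compares 2 libraries. Levels are UMIs summed over a group of barcodes and scaled to the total UMIs of the same barcodes (CPM, counts per 1e+06 UMIs). Intervals are 95% intervals that cover counting error only, and they are too narrow where a few cells hold many of the UMIs.

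GABAergic neurons of the hypothalamus release GABA and often co-release peptides or monoamines. In zebrafish, neurons around the hypothalamic ventricle that contact the cerebrospinal fluid make dopamine through th2 or serotonin through tph1a. Dkk proteins block Wnt signalling at its LRP co-receptors, and activins signal through type I and type II serine/threonine kinase receptors. Cholecystokinin, a gut and brain peptide, acts through the receptors encoded by cckar, cckbra and cckbrb.

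The WT library held 51744329 UMIs and the CCK1/2-KO library 58095515. Members had a median of 8213 UMIs in WT (range 1225 to 41288) and 7192 in CCK1/2-KO (1345 to 36428), against 6742 and 6171 in the other gad2-positive barcodes. The median share of mitochondrial UMIs in a member was 2.86% in WT and 2.37% in the other library. Doublets were not removed. Of the members, 11 in WT (8.80%) and 8 in CCK1/2-KO (6.4%) were among the barcodes with the highest Scrublet scores, against 8.97% and 11.7% of the other gad2-positive barcodes. The libraries shared 52 barcode sequences, and the sequence of 1 member also occurred in the other library, where it was not a member.

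Members made up 1.81% (1.51 to 2.16) of the WT barcodes with 1000 or more UMIs and 1.5% (1.25 to 1.79) of those in CCK1/2-KO. The ratio of the shares was 0.827 (0.647 to 1.06). Of the gad2-positive barcodes they made up 4.21% (3.52 to 5.0) and 3.47% (2.90 to 4.13), with a ratio of 0.825 (0.647 to 1.05). Both intervals of the ratio included 1. Without mixed barcodes, which carried RNA of macrophages, endothelium, oligodendrocytes, mural cells or erythrocytes, 69 and 74 members remained, the shares were 3.69% and 2.43%, and the ratio was 0.657 (0.476 to 0.908). That filter used fixed UMI cuts, not scaled for depth, and also removed barcodes from the denominators. Its ratio therefore depends on how many other barcodes each library lost, and not on members alone. With 1 library per genotype, whether the share differs between genotypes was not tested.

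The genes that chose the members are given as a description. dkk1b reached 1634 CPM in WT members and 1183 CPM in CCK1/2-KO members, with 1849 and 1364 UMIs, against 3.69 and 2.38 CPM in the other gad2-positive barcodes. In single members it ran from 24.2 to 7978 CPM in WT, with a median of 1197, and from 39.2 to 7478 CPM in CCK1/2-KO, with a median of 907. The gene gad2 stood at 3686 and 3435 CPM, against 1747 and 1804. inhbaa stood at 1211 and 1113 CPM, but it was seen in only 82 of 125 WT members (65.6%) and 75 of 125 CCK1/2-KO members (60%), so members expressing dkk1b without a detected inhbaa transcript are part of the group. Just inside the threshold lay 40 barcodes with 2 dkk1b UMIs and 28 with 1 dkk1b UMI and inhbaa. Just outside lay 152 with 1 dkk1b UMI and no inhbaa, and 147 with 2 or more inhbaa UMIs and no dkk1b.

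When all gad2-positive barcodes of both libraries were clustered without the 3 selecting genes, 185 of the 250 members (74.0%, 68.1 to 79.3) fell into 1 of 30 clusters. This main cluster held 88 of 125 WT members (70.4%) and 97 of 125 CCK1/2-KO members (77.6%), and 5.11% of the other gad2-positive barcodes. The next clusters held 16, 12 and 7 members. Of the members with 6 or more dkk1b UMIs, 87.9% lay in the main cluster, against 68.3% of those with 3 to 5 UMIs and 50% of those with 2. Of those with 1 dkk1b UMI and inhbaa 46.4% did, and just outside the rule 14.5% and 31.3% of the classes named above. At the finer resolution of 2.0 the main cluster split, and the largest piece held 30.4% of the members. Without genes past 2-fold between the libraries, the 2 clusters with the most members held 123 and 75.

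The label of GABAergic neurons was checked against genes that the rule did not use. slc32a1, the vesicular GABA transporter, stood at 428 CPM (390.5 to 468) in WT members and 394 CPM in CCK1/2-KO members, against 414 and 351 CPM in the other gad2-positive barcodes. A slc32a1 UMI was seen in 84.0% and 76.8% of members, against 46.1% and 46.9% of the others. The others include barcodes with few gad2 UMIs, so these shares do not compare members with GABAergic neurons alone. After every cell was thinned to 1000 UMIs the shares were 36.0% and 28.8%, against 23.5% and 23.9%. Erythrocyte-type barcodes, which should lack the transcript, gave 4.35% and 4.08% unthinned, at median depths of 7616 UMIs in WT and 4236 in CCK1/2-KO. Other GABA genes were lower. gad1b, the second glutamate decarboxylase gene, stood at 16.8 and 34.7 CPM against 297 and 229, and the GABA transporter genes slc6a1a and slc6a1b were called lower as well. Of the 5 genes of GABA synthesis and transport tested, 0 were called higher and 3 lower, beside 3.80% and 6.80% of all tested genes. The vesicular glutamate transporter gene slc17a6b stood at 40.7 and 56.4 CPM, against 92.8 and 93.2.

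All 13 pan-neuronal genes examined were detected in members, and 5 of them, elavl3, elavl4, snap25b, stmn2a and stmn2b, were lower than in the other gad2-positive barcodes. The share called lower among all tested genes was 6.80%. In the main cluster the RNA-binding protein gene elavl3 stood at 25.2 CPM in WT members and 34.7 CPM in CCK1/2-KO members, with a UMI in 15.9% and 14.4% of cells, against 7.45% and 5.61% of erythrocyte-type barcodes. The synaptotagmin gene syt1a stood at 1446 and 1274 CPM there and was seen in 97.7% and 97.9% of cells. In members outside the main cluster elavl3 stood at 294 and 264 CPM and slc6a1b at 175 and 238 CPM, against 33.1 and 13.0 CPM of slc6a1b inside it. dkk1b stood at 406 and 405 CPM outside, against 2248 and 1704 CPM inside. Of members outside the main cluster, 8 of 37 WT and 7 of 28 CCK1/2-KO barcodes were among the highest Scrublet scores, against 3 of 88 and 1 of 97 inside. The part of mixed barcodes in the values outside the main cluster was not tested.

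Genes were compared between members and the other gad2-positive barcodes in each library. A gene was called when its ratio of (CPM + 5) passed 2-fold the same way in both libraries, also without the 3 highest cells of each group. Of 6601 genes with a mean of 20 or more CPM, 251 (3.80%) were called higher and 449 (6.80%) lower in members. The mean was taken over members and others of both libraries. Genes seen mainly in the others were therefore tested too, and such genes could hardly be called other than lower. Counts of called genes in the lists stand beside these shares, and counts near them are not read as results about a list. The median log2 ratio of all tested genes was -0.23 in both libraries, and across genes the ratios of the libraries correlated with a Pearson coefficient of 0.81, a description in which genes are not independent.

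**Figure D1:**
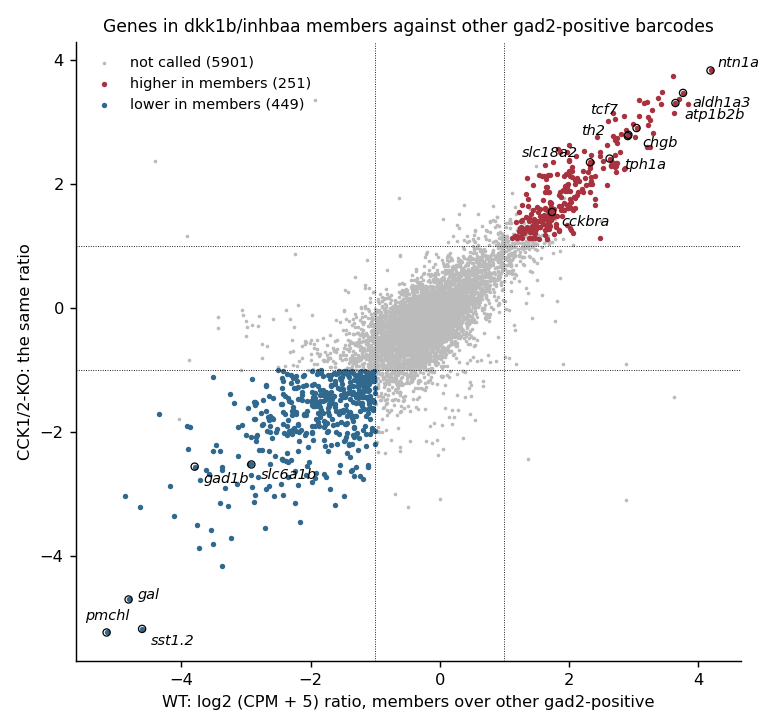
Log2 ratio of (CPM + 5) of members over other gad2-positive barcodes, 1 point per tested gene, with WT on the x axis and CCK1/2-KO on the y axis. Dotted lines mark 2-fold, and red and blue points are the 251 genes called higher and the 449 called lower. The ratios of th2, tph1a, chgb, ntn1a and atp1b2b lay on the same side in both libraries, and are circled; cckbra is circled too but was not called.

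Of the 15 highest genes, ntn1a, which encodes the axon guidance cue netrin 1, stood at 1173 CPM (1110 to 1238) in WT members and 918 CPM (863.9 to 975) in CCK1/2-KO members, against 59.7 and 59.6 CPM in the others. Its log2 ratio was 4.30 (4.19 to 4.41) in WT and 3.95 (3.83 to 4.06) in CCK1/2-KO. A ntn1a UMI was seen in 50.4% and 53.6% of members, so about as many members lacked it as carried it. aldh1a3, an enzyme that makes retinoic acid, stood at 422 and 257 CPM against 26.5 and 18.5. cyp26b1, which degrades retinoic acid, was among the 10 lowest genes, at 4.42 and 40.8 CPM against 158 and 460.1.

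The sodium pump beta subunit gene atp1b2b, given as a marker of these cells, stood at 905 CPM (850.4 to 962) in WT members and 734 CPM (685 to 785) in CCK1/2-KO members, against 67.8 and 69.4 CPM. The log2 ratios were 3.74 (3.63 to 3.85) and 3.40 (3.28 to 3.52). In single members atp1b2b ran from 0 to 2888 CPM in WT, with a median of 753, and from 0 to 3590 CPM in CCK1/2-KO, with a median of 746. It was seen in 78.4% and 76.0% of members, or 49.6% and 46.4% after thinning, against 11.8% and 10.5% of the others, or 5.42% and 4.98% after thinning. None of 161 WT erythrocyte-type barcodes and 3.06% of those in CCK1/2-KO carried it.

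The calcium pump gene atp2a2a of the endoplasmic reticulum stood at 1159 and 724 CPM in members against 76.2 and 68.9 CPM. cacna2d1a, a calcium channel subunit gene, stood at 615 and 342 CPM against 45.3 and 34.2. The NMDA receptor gene listed as GRIN2C stood at 549 and 377 CPM against 48.5 and 31.6. All 74 genes near it in the feature list that matched lay on the chromosome of grin2cb in the RefSeq gene table, and none on that of grin2ca. GPR139, a G protein-coupled receptor gene, stood at 819 and 785 CPM against 92.4 and 72.3. The relaxin receptor-like gene rxfp2l stood at 397 and 402 CPM against 32.6 and 36.5.

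Other genes among the 15 highest were GDPD5, a glycerophosphodiester phosphodiesterase, at 466 and 454 CPM against 33.8 and 29.2, and the thioredoxin gene txn at 2380 and 1807 CPM against 240.0 and 193. The membrane-bound metalloproteinase gene mmp17b stood at 246 and 226 CPM against 23.1 and 18.3. A pair of features listed as PDGFA and pdgfaa, named for the platelet-derived growth factor A chain, stood at 191 and 137 CPM and at 101 and 94.5 CPM, against 10.1 and 8.65 and against 6.53 and 4.86. Reads that fit both cannot be divided between them here. si:dkey-85n7.8 stood at 574 and 351 CPM against 48.6 and 26.7. The feature ENSDARG00000108939, which has no name in the files or tables, stood at 22650 CPM in WT members and 50520 CPM in CCK1/2-KO members, against 2661 and 5853 CPM, and so differed between the libraries in both kinds of barcode.

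The 10 lowest genes held 6 neuropeptide precursors and 2 myelin genes. pmchl, a melanin-concentrating hormone-like precursor, stood at 134 and 49.4 CPM in members against 4956 and 2043 CPM. The galanin gene gal stood at 8.84 and 9.54 CPM against 384 and 373, and the somatostatin gene sst1.2 at 5.30 and 4.34 CPM against 246 and 333. Prodynorphin pdyn, corticotropin-releasing hormone crhb and neuromedin U nmu ranged from 0.867 to 11.5 CPM in members, against 66.6 to 218 CPM. The myelin genes plp1b and mpz stood at 58.3 and 35.6 CPM and at 44.2 and 16.5 CPM, against 735 and 478 CPM and 557 and 295 CPM. Without mixed barcodes the log2 ratios of plp1b were 0.063 and -0.42 and those of mpz 0.43 and -0.19, a setting that itself removes barcodes by oligodendrocyte RNA. The hypothalamic transcription factor gene otpa stood at 6.19 and 0.867 CPM against 110.5 and 99.7.

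**Figure D2:**
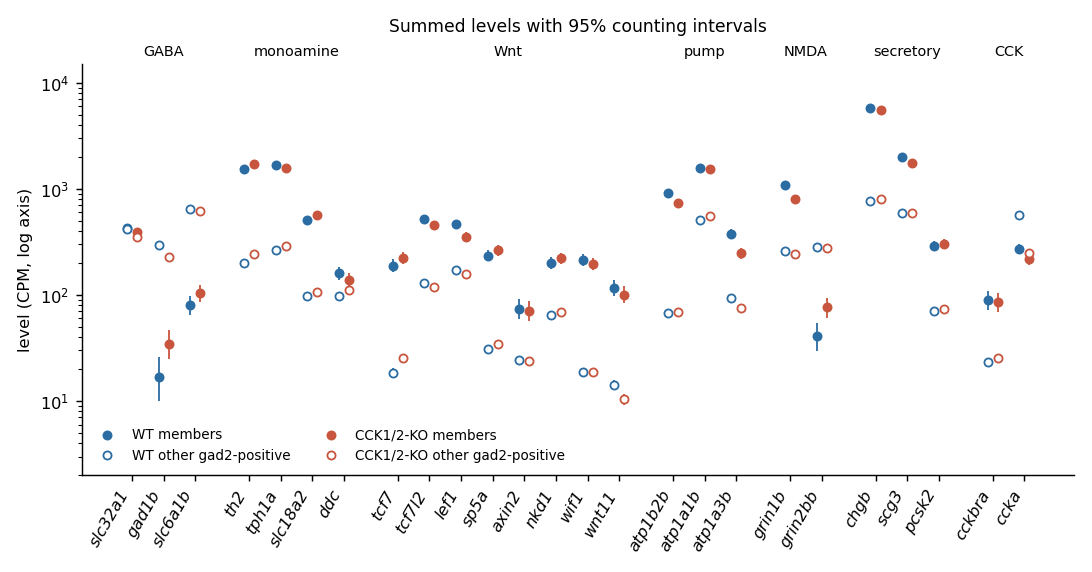
Levels in CPM on a log axis of genes of 7 groups, as sums over barcodes with 95% counting intervals. Filled circles are members and open circles other gad2-positive barcodes, in blue for WT and red for CCK1/2-KO. For th2, tph1a, tcf7, sp5a, atp1b2b and chgb the filled circles lie above the open ones of the same library, for gad1b, slc6a1b and grin2bb below, and for slc32a1 close to them.

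Members carried the genes of monoamine synthesis and storage. th2, a tyrosine hydroxylase, stood at 1535 CPM (1464 to 1609) in WT members and 1718 CPM in CCK1/2-KO members, against 199 and 243 CPM. tph1a, a tryptophan hydroxylase, stood at 1661 CPM (1587 to 1738) and 1557 CPM, against 265 and 288 CPM. slc18a2, the vesicular monoamine transporter, stood at 514 and 562 CPM, against 98.6 and 106 CPM. These 3 of the 4 tested genes of amine and acetylcholine release were called higher and 0 lower, beside 3.80% and 6.80% of all tested genes. The fourth, the amino acid decarboxylase ddc, stood at 160.0 and 138 CPM against 97.6 and 111.

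A UMI of th2 or tph1a was seen in 233 of 250 members (93.2%, 89.3 to 96.0) and in 31.5% of the other gad2-positive barcodes, and 5 or more UMIs of either in 85.6% against 17.4%. In erythrocyte-type barcodes single UMIs of th2 were seen in 4.35% and 2.55% and of tph1a in 3.73% and 3.57%. Both genes divided the members. With 5 or more th2 UMIs and fewer than 2 tph1a UMIs, 51 WT and 48 CCK1/2-KO members (39.6% together) were th2-type, and by the reverse cut 47 and 45 (36.8%) were tph1a-type. Both genes reached 5 UMIs in 8 and 11 members, whose median depth of 17017 UMIs was above the 7968 and 7352 UMIs of the other types, and 2 of these 19 were among the highest Scrublet scores. Neither reached 2 UMIs in 10 and 15 members, of which 4 lay in the main cluster, against 79 of 99 and 80 of 92 of the types. The remaining 15 members lay between the cuts.

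**Figure D3:**
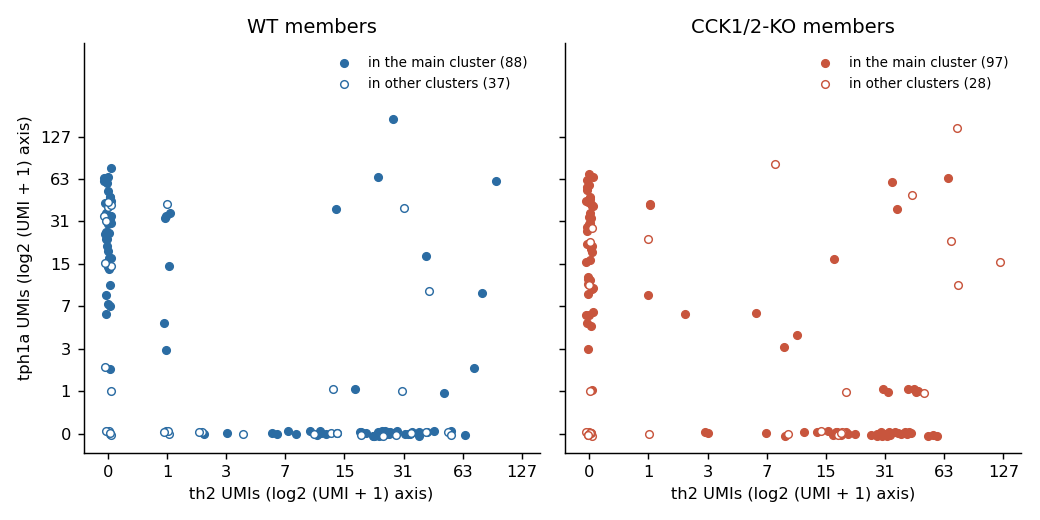
UMIs of th2 (x axis) and tph1a (y axis) in each member, both on a log2 (UMI + 1) axis with a small random offset, for 125 WT and 125 CCK1/2-KO members. Filled points lie in the main cluster and open points in other clusters. Most members lie along one axis or the other, with 51 and 48 on the th2 side, 47 and 45 on the tph1a side, and 8 and 11 with 5 or more UMIs of both.

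The types had like levels of gad2 and atp1b2b and differed in other genes. gad2 stood at 3868 CPM in th2-type and 4012 CPM in tph1a-type WT members, and atp1b2b at 906 and 911 CPM. In CCK1/2-KO gad2 stood at 4206 and 4205 CPM and atp1b2b at 887 and 974.5 CPM. dkk1b stood at 1832 CPM in th2-type and 1534 CPM in tph1a-type members in WT, and at 1330.0 and 2077 CPM in CCK1/2-KO, so the libraries gave opposite orders. Of 5623 genes tested between the types, 44 (0.783%) were called higher in th2-type and 17 (0.302%) higher in tph1a-type members, with the same rule in both libraries. The genes of this comparison were chosen after their values were seen.

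Of the genes higher in th2-type members, ascl1a, a proneural transcription factor gene, stood at 249 CPM in WT th2-type members and 2.77 CPM in tph1a-type members. In CCK1/2-KO it stood at 197 CPM against 0 UMIs, at least 20.1-fold above the floor of 3 counts over the tph1a-type cells. The homeobox gene dlx5a stood at 214 CPM in WT against 0 UMIs, at least 25.7-fold above that floor, and at 307 against 9.81 CPM in CCK1/2-KO. dlx6a stood at 136 and 128 CPM against 2.77 and 3.27. The muscarinic receptor gene chrm2a stood at 115 and 153 CPM against 8.31 and 6.54. A UMI of ascl1a was seen in 39.2% of WT and 33.3% of CCK1/2-KO th2-type members, and of chrm2a in 31.4% and 22.9%. For dlx5a the shares were 56.9% and 68.8%, so many th2-type members had no UMI of these genes. A feature listed as PTPRT was seen in 98.0% and 97.9% of th2-type members, against 14.9% and 4.44% of tph1a-type members. slc6a3, the dopamine transporter, had 12 and 4 UMIs in th2-type and 0 in tph1a-type members.

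In tph1a-type members the adhesion gene DSCAM stood at 1323 CPM in WT and 1043 CPM in CCK1/2-KO, against 71.9 and 61.4 CPM in th2-type members. The log2 ratio of th2-type over tph1a-type was -4.20 (-4.74 to -3.71) and -4.09 (-4.75 to -3.49). The dopamine receptor genes drd2b and drd2a stood at 194 and 451 CPM and at 133 and 114 CPM, against 37.0 and 28.1 and against 39.0 and 48.6. The BMP antagonist chrd stood at 108 and 52.3 CPM, against 18.5 CPM in WT th2-type members and 0 UMIs in CCK1/2-KO. A chrd UMI was seen in only 14.9% and 11.1% of tph1a-type members, and a DSCAM UMI in 100% and 95.6%. slc6a4b, a serotonin transporter, had 15 and 5 UMIs in tph1a-type members and 0 and 1 in th2-type members.

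Wnt pathway genes beside dkk1b were mostly higher or not called, where 3.80% of all tested genes were called higher and 6.80% lower. Of the ligands, wnt11 was called, at 117 and 101 CPM in members against 14.1 and 10.4 CPM, as 1 of 2 tested. Of 5 tested antagonists 2 were called higher and 0 lower. wif1, which binds Wnt proteins, stood at 215 CPM (189 to 244) and 196 CPM, against 18.7 and 18.8 CPM, and notum1b, which removes their lipid, at 75.1 and 43.4 CPM against 4.86 and 2.15 CPM. Of 14 receptor and transduction genes tested, 3 were called higher and 0 lower, and these were the nuclear partners of beta-catenin. tcf7 stood at 189 and 224 CPM against 18.6 and 25.5, tcf7l2 at 517 and 452 CPM against 129 and 118, and lef1 at 464 and 353 CPM against 170.3 and 158. The frizzled receptor gene fzd8a stood at 85.7 and 39.9 CPM against 16.8 and 17.1 and was not called.

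Of 8 genes listed as Wnt targets, 4 were called higher and 0 lower, beside 3.80% and 6.80% of all tested genes. The median log2 ratio over the 8 was 1.11 and 0.83, beside -0.23 for all tested genes. sp5a, a transcription factor gene, stood at 235 CPM (208 to 265) and 263 CPM, against 30.9 and 34.8. axin2, a negative regulator of beta-catenin, stood at 74.2 and 71.1 CPM against 24.2 and 23.8, and nkd1, an inhibitor of dishevelled, at 199 and 221 CPM against 64.7 and 69.7. The receptor gene tnfrsf19 stood at 283 and 189 CPM against 42.9 and 44.1. sp5a was seen in 52.0% and 54.4% of members, or 21.6% and 22.4% after thinning, against 10.4% and 10.2% of the others, or 3.17% and 2.97%, and in 0.621% and 0% of erythrocyte-type barcodes (0 of 196 there).

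Beside inhbaa, the activin and TGF-beta lists held few tested genes, and 3.80% of all tested genes were called higher and 6.80% lower. tgfb1a, a TGF-beta ligand, was called higher, at 79.5 and 53.8 CPM against 15.8 and 19.6 CPM, as 1 of 3 ligands tested. Of 5 tested inhibitors and 5 tested receptor and SMAD genes, 0 were called in either direction. bmpr2b, a type II receptor with the highest level of its list, stood at 145 and 186 CPM against 143 and 163.

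Sodium pump genes were called in both directions. Of 15 tested, 3 were called higher and 2 lower, beside 3.80% higher and 6.80% lower of all tested genes. The alpha subunit genes atp1a1b and atp1a3b stood at 1579 and 1533 CPM and at 378 and 248 CPM, against 508 and 552 and against 93.2 and 74.9. Of the beta subunits atp1b2b was higher, whereas atp1b1a stood at 104 and 90.2 CPM against 290 and 312, and ATP1B4 at 122 and 82.4 CPM against 337 and 347.

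Among NMDA receptor genes 2 of 8 tested were called higher and 5 lower. grin1b, an obligatory subunit, stood at 1081 and 811 CPM against 260.2 and 244, and its paralogue grin1a at 252 and 215 CPM against 541 and 506. Against the higher GRIN2C, grin2bb stood at 40.7 and 76.3 CPM against 281 and 278, grin2ab at 22.1 and 46.8 against 141 and 131, and GRIN2A at 13.3 and 7.80 against 69.4 and 66.5. Of 26 other glutamate receptor genes 1 was called higher, the metabotropic receptor grm6a at 404 and 348 CPM against 82.8 and 71.0, and 4 were called lower. Of 18 GABA and glycine receptor genes, gabrb1 and gabrb2a were called higher and gabra4 lower. Over all tested genes the shares were 3.80% higher and 6.80% lower, and counts near them are not read as results about a list.

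Of 26 sodium and calcium channel genes 6 were called higher and 1 lower. Beside cacna2d1a these were pore subunits, among them CACNA1I, a T-type channel, at 1157 and 905 CPM against 227 and 184, and CACNA1E at 519 and 386 CPM against 145 and 153. The T-type gene cacna1ha was lower, at 42.4 and 73.7 CPM against 175 and 197. Of 32 potassium channel genes 1 was called higher and 6 lower. Of 17 calcium-binding genes 2 were higher and 5 lower. Over all tested genes 3.80% were called higher and 6.80% lower. cabp1a, a neuronal calcium-binding protein gene, stood at 838 and 1058 CPM against 124 and 123.

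Of the granin and processing genes 3 were called higher. chgb, which encodes the granule protein chromogranin B, stood at 5827 CPM (5687 to 5969) in WT members and 5548 CPM in CCK1/2-KO members, against 772 and 804.5 CPM. It was seen in 96.8% and 95.2% of members, or 92.0% and 87.2% after thinning, against 37.9% and 40.3% of the others, or 21.1% and 23.3%, and in 11.8% and 10.2% of erythrocyte-type barcodes. scg3, a secretogranin, stood at 1978 and 1740 CPM against 587 and 596, and the prohormone convertase gene pcsk2 at 292 and 300.0 CPM against 70.7 and 73.4. The other 8 of the 11 tested were not called, and the median log2 ratio of the list was 0.15 and 0.20. Of 27 neuropeptide genes tested 0 were called higher, 20 lower and 7 in neither direction. By the level in members alone, only 10 neuropeptide genes reached a mean of 20 CPM. Most of the 27 thus passed the filter through the others, and the count of 20 is not read as a trait of members. For both lists the shares of all tested genes were 3.80% higher and 6.80% lower. The neuropeptide Y gene npy stood at 1.77 and 2.60 CPM against 193 and 57.4. uts1, which encodes urotensin 1, stood at 54.8 and 168 CPM against 66.2 and 103.

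Receptors for peptides and amines were called in both directions, beside 3.80% higher and 6.80% lower of all tested genes. Of 21 peptide receptor genes 2 were higher and 10 lower, and by the level in members alone 13 reached a mean of 20 CPM. CALCR, the calcitonin receptor, stood at 262 and 206 CPM against 72.2 and 76.7, and the thyrotropin-releasing hormone receptor trhrb at 85.7 and 91.0 CPM against 28.2 and 34.0. The somatostatin receptor gene SSTR1 stood at 4.42 and 6.07 CPM against 50.3 and 52.7. Of 18 amine and acetylcholine receptor genes 3 were higher and 2 lower, the serotonin receptors HTR2A and htr7a standing at 186 and 148 CPM and at 91.0 and 54.6 CPM, against 38.4 and 37.0 and against 20.3 and 14.8.

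Of 19 hypothalamic transcription factor genes tested, the POU factors pou3f1, pou3f3a and pou3f3b were higher and 5 were lower. By the level in members alone 12 reached a mean of 20 CPM. pou3f1 stood at 270.4 and 212 CPM against 59.98 and 66.2. hmx2 and hmx3a, homeobox genes, stood at 1.77 and 0.867 CPM and at 11.5 and 8.67 CPM, against 44.1 and 42.4 and against 79.5 and 64.2. Of 26 telencephalic transcription factor genes ascl1a was higher and 9 were lower. insm1a, a zinc finger factor gene of endocrine and neuronal precursors listed here among immature neuron markers, stood at 620.4 and 434 CPM against 95.1 and 84.0, while sox11a and tubb5 of the same list were lower. Of 38 immediate early genes nr4a1 was higher, at 2468 and 2190 CPM against 1018 and 942, and 4 were lower. Of 20 heat shock and stress genes 0 were called in either direction. The counts of the immediate early and heat shock lists lay near the shares of all tested genes, 3.80% higher and 6.80% lower.

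Axon guidance and growth factor genes were mixed. Of 72 axon, synapse and adhesion genes 7 were higher and 7 lower, beside 3.80% higher and 6.80% lower of all tested genes. Besides ntn1a, the contactin genes cntn3a.1 and cntn4 stood at 540.0 and 447 CPM and at 663 and 622 CPM, against 110.1 and 100.2 and against 167 and 153. The netrin receptor gene unc5a was lower, at 106 and 264 CPM against 581 and 715. Of 29 growth factor genes 1 was higher, pdgfaa, and 9 were lower, among them the pleiotrophin gene ptn at 7.95 and 13.9 CPM against 86.1 and 120.2.

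Markers of non-neuronal cell types were lower in members or not called, except tcf7, which was higher and was the single tested gene of the T and NK cell list. Part of the other gad2-positive barcodes carried erythrocyte and oligodendrocyte RNA, as given above. That list, with 3 of 8 genes detected in members, summed to 196 and 229 CPM against 43.3 and 41.1, of which tcf7 made up 189 and 224 CPM in members. Of the oligodendrocyte list 5 of 6 tested genes were lower, and its sum was 288 and 163 CPM in members against 2843 and 1610 CPM in the other gad2-positive barcodes. All 5 tested macrophage genes were lower, with sums of 140 and 103 CPM against 1225 and 807, as were 4 of 12 astroglial genes, with sums of 2277 and 1728 CPM against 4837 and 5112. Each of these lists had at least 10 genes with a UMI in members. Of 8 mural and 2 endothelial genes 0 were called, beside 3.80% higher and 6.80% lower of all tested genes. The mural list summed to 750.3 CPM in WT members and 302 CPM in CCK1/2-KO members, against 456 and 493 CPM. In WT members 76.2% of its UMIs lay in 3 cells. The oligodendrocyte list includes plp1b and mpz. Of other neuron lists, 5 of 12 Purkinje and cerebellar genes were lower and 0 higher, and of 18 striatal-type genes drd2a and sox1a were higher and 5 lower. The immature neuron list had insm1a higher, as given above.

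Members were also set beside the other monoaminergic gad2-positive barcodes. Against the 1316 other gad2-positive barcodes with 2 or more th2 or tph1a UMIs, 63 of 6197 tested genes (1.02%) were called higher in members and 103 (1.66%) lower. The genes of this comparison were chosen after their values were seen. atp2a2a stood at 1159 and 724 CPM against 158 and 97.8, wif1 at 215 and 196 CPM against 46.1 and 43.0, and ntn1a at 1173 and 918 CPM against 265 and 243. The opioid precursor penkb stood at 10.6 and 7.80 CPM against 129 and 123, the LIM homeobox gene lhx9 at 14.1 and 14.7 CPM against 122 and 98.6, and tph1b, a further tryptophan hydroxylase, at 10.6 and 1.73 CPM against 73.4 and 46.1.

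The main cluster also held 323 barcodes that the rule did not choose. They stood at 9.10 and 12.7 CPM of dkk1b, against 2248 and 1704 CPM in the members of that cluster. The rule itself sets this gap. atp1b2b stood at 1216 and 1297 CPM in these non-members and at 1225 and 991.5 CPM in the members beside them, and tcf7l2 at 995 and 946 CPM against 685 and 604 CPM. The monoamine genes were also present in the non-members. th2 stood at 1405 and 1670.0 CPM in non-members and 1734 and 2083 CPM in members, tph1a at 1829 and 1675 CPM against 2077 and 2009, and slc18a2 at 829 and 685 CPM against 603 and 764. The granule gene chgb stood at 5800 and 5049 CPM in non-members against 6986 and 6907 CPM in members, and lef1 at 558 and 529 CPM against 537 and 418. Of 5532 genes tested within the cluster, 51 (0.922%) were called higher in members and 37 (0.669%) lower. The genes named from this comparison were likewise chosen after their values were seen.

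Of the genes called higher, hbegfa, an EGF receptor ligand, stood at 231 and 166 CPM in members of the main cluster against 23.2 and 15.6 CPM in the non-members. The MAP kinase phosphatase gene dusp5 stood at 387 and 549 CPM against 71.8 and 84.8, the AP-1 factor fosl1a at 573 and 609 CPM against 122 and 142, and egr2a at 211 and 101 CPM against 24.2 and 32.2. ntn1a stood at 1530.0 and 1222 CPM against 202 and 285. Its paralogue ntn1b went the other way, at 33.1 and 31.8 CPM against 124 and 126. The LIM homeobox gene isl1b stood at 103 and 75.3 CPM against 495 and 358, and gad1b at 9.28 and 5.79 CPM against 44.5 and 30.2.

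The cholecystokinin receptor gene cckbra stood above the level of the other gad2-positive barcodes in both libraries, but in CCK1/2-KO 3 cells held much of it. WT members had 101 cckbra UMIs in 41 of 125 cells (32.8%), or 89.3 CPM (72.7 to 108). CCK1/2-KO members had 98 UMIs in 23 of 125 cells (18.4%), or 85.0 CPM (69.0 to 104). The others stood at 23.3 and 25.7 CPM, with a UMI in 8.09% and 7.66% of cells. The log2 ratio of members over others was 1.94 (1.62 to 2.25) in WT and 1.73 (1.41 to 2.03) in CCK1/2-KO, and without the 3 highest cells of each group it was 0.58 in CCK1/2-KO. For that reason cckbra was not among the genes called.

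Thinned to 1000 UMIs, cckbra was seen in 11.2% of WT members and 4.0% of CCK1/2-KO members, against 2.04% and 2.1% of the others. Erythrocyte-type barcodes gave 1 UMI in 161 WT barcodes (0.621%) and 0 in 196 CCK1/2-KO barcodes. The median member had 0 cckbra UMIs in both libraries. In WT the highest cells had 10, 6 and 5 UMIs and in CCK1/2-KO 40, 12 and 9.

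Between the libraries the level over all members was close, with a log2 ratio of CCK1/2-KO over WT of -0.07 (-0.49 to 0.34). It rested on 3 CCK1/2-KO cells that held 40, 12 and 9 of the 98 UMIs, and without the 3 highest cells of each library it was -1.08 (-1.69 to -0.50). Those 3 cells lay outside the main cluster, had 19336, 32928 and 23204 UMIs in all, and held all 26 cckbrb UMIs of the CCK1/2-KO members, at 6, 8 and 12 UMIs. They carried 2, 2 and 1 dkk1b UMIs and 2, 2 and 16 gad2 UMIs, where the median CCK1/2-KO member had 23 gad2 UMIs. Of the 3 cells 1 was among the highest Scrublet scores, and their slc17a6b UMIs were 6, 21 and 11.

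Within the main cluster, 33 of 88 WT members (37.5%, 27.4 to 48.5) carried cckbra, with 89 UMIs and 118 CPM (94.7 to 145). In CCK1/2-KO 16 of 97 members (16.5%, 9.73 to 25.4) did, with 26 UMIs and 37.6 CPM (24.6 to 55.1), and the log2 ratio was -1.65 (-2.34 to -1.0). The non-members of the same cluster stood at 104 and 123 CPM, with a log2 ratio of 0.24 (-0.15 to 0.63). The interval of the members' ratio lay below 0 and that of the non-members' ratio included 0, and the difference between these ratios was not tested. Restricting members to the main cluster was decided after the data were seen. With 1 library per genotype, differences between fish pools are not covered by these intervals.

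**Figure D4:**
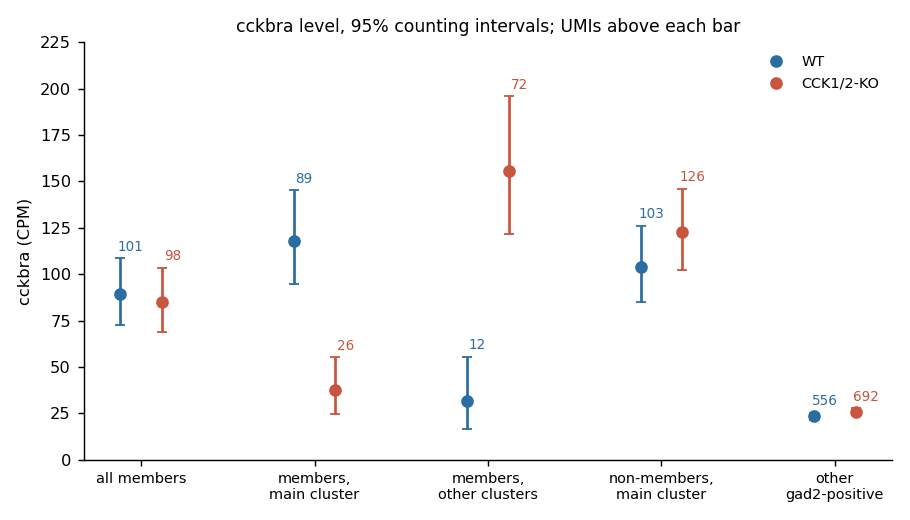
cckbra level in CPM with 95% counting intervals and UMI counts above each bar, for 5 groups of barcodes in WT (blue) and CCK1/2-KO (red). All members lie at 89.3 and 85.0 CPM, members of the main cluster at 118 and 37.6 CPM, members of other clusters at 31.8 and 156 CPM, non-members of the main cluster at 104 and 123 CPM, and all other gad2-positive barcodes at 23.3 and 25.7 CPM.

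Over the gad2-positive clusters with 50 or more barcodes, the main cluster ranked first of 25 for cckbra in WT, at 110.1 CPM. In CCK1/2-KO it ranked second, at 88.5 CPM, behind a cluster of 90 barcodes at 145 CPM. Of the 508 barcodes of the main cluster only 185 were members, so these ranks are not those of members alone. Its members in CCK1/2-KO stood at 37.6 CPM and its non-members at 123 CPM. The genes whose levels over the 25 clusters were most like that of cckbra were b3glcta (Pearson coefficient 0.745), wdr26b (0.629), ntan1 (0.600), diaph3 (0.571) and prkcbb (0.557), a description over clusters that share their libraries. Of these prkcbb, a protein kinase C gene, was higher in members, at 1594 and 1303 CPM against 498 and 481. Of 10 tested genes of the G protein pathway that B-type cholecystokinin receptors use in mammals, prkcbb and rgs8 were called higher and rgs4 lower. Among all tested genes 3.80% were called higher and 6.80% lower. rgs8, a regulator of G protein signalling, stood at 451 and 411 CPM against 137 and 147.

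The other genes of the system were sparse in members. cckar had 0 UMIs in 125 members of each library, which allows up to 2.4% of cells with a UMI at a floor of 3 counts and sets no limit on cells that express the gene. In the other gad2-positive barcodes it was seen in 0.281% and 0.230%. cckbrb had 0 UMIs in WT members and 26 UMIs in 3 CCK1/2-KO members. This feature is listed as CCKBR and was taken as cckbrb because 24 of 26 matched neighbours in the feature list lay on the chromosome of cckbrb, so its identity is less sure than that of cckbra. The ligand gene ccka had 309 UMIs in 28 WT members (22.4%), or 273 CPM, and 249 UMIs in 12 CCK1/2-KO members (9.60%), or 216 CPM. It was seen in 11.8% and 3.57% of erythrocyte-type barcodes, and in 25.5% and 17.1% of the other gad2-positive barcodes, which stood at 569 and 248 CPM. In members of the main cluster ccka had 61 UMIs, of which 44 lay in 1 cell, and 8 UMIs.

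Between the libraries 71 of 6024 tested genes (1.18%) were called higher in CCK1/2-KO members and 46 (0.764%) lower, by the same 2-fold rule within members alone. The median log2 ratio of all tested genes was -0.01, and that of the 251 genes that were higher in members was -0.18, with 22 of them past 1.5-fold lower and 7 past 1.5-fold higher. The shares of all tested genes past 1.5-fold were not counted, so the 22 and 7 are not read as a trait of these genes. Before the 3 highest cells were left out, 242 genes had passed 2-fold. Members outside the main cluster had a median of 7786 UMIs in WT and 16630 in CCK1/2-KO. They held 377135 of the 1131545 member UMIs in WT and 462292 of 1153160 in CCK1/2-KO. The part of this difference in the ratios was not tested. In the main cluster only, 118 and 119 genes were called, among them 36 of the 71 and 28 of the 46. Without mixed barcodes 235 and 182 were called, among them 39 of the 71 and 24 of the 46. Of the 71 genes 10 were above the level of the other gad2-positive barcodes in both libraries and 32 below, and of the 46 genes 14 were above and 10 below. Of both sets 9 and 3 genes also passed 2-fold between the libraries in the other gad2-positive barcodes. The shares of all tested genes that meet these conditions were not counted, so these counts are not read as traits of the called genes. Over all genes tested against the other gad2-positive barcodes the median log2 ratio of members was -0.23.

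The lowest gene in CCK1/2-KO members was cyp19a1b, brain aromatase, a gene of radial glia in teleosts, at 404 CPM in WT and 17.3 CPM in CCK1/2-KO (log2 ratio -4.54, -5.27 to -3.90). It was lower in the other gad2-positive barcodes too, at 624 and 101 CPM. In the main cluster 87 UMIs in WT members gave 115 CPM and 1 UMI in CCK1/2-KO members 1.45 CPM. The summed astroglial marker list, which includes this gene, stood at 2277 CPM in WT members and 1728 CPM in CCK1/2-KO members, and at 815 and 696 CPM in the main cluster. The part of glial RNA in the cyp19a1b ratio was not tested.

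The integrin gene itga5 stood at 98.1 and 10.4 CPM, with a log2 ratio of -3.24 (-4.23 to -2.38) in members and -3.47 in those of the main cluster. Its level in the other gad2-positive barcodes was 22.5 and 23.9 CPM. The ras-related gene rasd3 stood at 98.1 and 15.6 CPM. The Golgi gene tmf1, the ceramide kinase gene cerk, the secretory kinase gene fam20ca, si:ch211-40k21.5 and tlcd4b ranged from 37.1 to 91.9 CPM in WT and from 8.67 to 28.6 CPM in CCK1/2-KO, and all kept their direction in the main cluster.

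rgs5a, a gene of mural cells, stood at 253 and 13.9 CPM, but in the main cluster its log2 ratio was 0.47. The mural marker list, which includes it, summed to 750.3 CPM in WT members with 76.2% of its UMIs in 3 cells, against 302 CPM in CCK1/2-KO members, and to 86.2 and 146 CPM in the main cluster. The erythrocyte list summed to 1824 CPM in WT members and 10140 CPM in CCK1/2-KO members, of which 88.0% lay in 3 cells, and to 1654 and 1339 CPM in the main cluster. The part of RNA from these cell types in the genotype ratios was not tested.

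Of the genes higher in CCK1/2-KO members, cpdp stood at 7.95 and 50.3 CPM, with a log2 ratio of 2.66 (1.64 to 3.86) in members and 3.30 in those of the main cluster. The retinoic acid-degrading cyp26b1 stood at 4.42 and 40.8 CPM, with a ratio of 3.21 (1.88 to 4.89) and of 4.21 in the main cluster. Both were also higher in the other gad2-positive barcodes of CCK1/2-KO, at 45.8 against 19.2 CPM for cpdp and 460.1 against 158 CPM for cyp26b1. si:ch73-65n21.1 stood at 14.1 and 64.2 CPM and btbd11a at 18.6 and 85.0 CPM, with ratios of 1.95 and 1.57 in the main cluster.

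The remaining genes of the 10 highest were less stable. nt5c2l1, ndufa4b, hhip and galntl6 had log2 ratios of 2.65, 2.37, 2.36 and 2.30 over all members and of 1.03, 1.13, 0.71 and 0.46 in the main cluster. si:ch211-250g4.3 and zgc:171482 had ratios of 2.80 and 2.91 over all members and of -0.33 and -0.14 in the main cluster. galntl6, a glycosyltransferase gene, stood at 38.0 and 186 CPM in members against 645 and 707 CPM in the others, so members lay below the others in both libraries.

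Of the genes that were higher in members than in the others, ENSDARG00000108939 was called higher in CCK1/2-KO members (log2 ratio 1.16, 1.14 to 1.18), with 1.14 on the (CPM + 5) scale in the other gad2-positive barcodes. rap1gap2b, a Rap1 GTPase activator, was called lower, at 864 and 302 CPM in members and 116 and 59.8 CPM in the others. The other enriched gene called lower was RAPGEF4, an exchange factor for the same GTPase, at 99.0 and 45.1 CPM in members and 15.6 and 7.06 CPM in the others. The ectodysplasin gene eda was called lower as well, at 84.0 and 26.0 CPM in members and 20.2 and 23.5 CPM in the others. These 3 genes were named after their values were seen. Among the listed genes, dvl1b, a dishevelled gene of the Wnt pathway, stood at 15.9 CPM in WT and 37.3 CPM in CCK1/2-KO members and was called higher, and fzd8a was called lower. The calcium-binding gene CALB1 (46.0 and 116 CPM), uts1, oprl1, adra1aa, unc5a and bdnf were also called higher, and pmchl, mpz and klf4 lower. No gene of the activin, sodium pump, NMDA receptor, GABA or amine release lists was called between the libraries. These lists had at most 15 tested genes each, and of all tested genes 1.18% were called higher and 0.764% lower. Lists of this size cannot tell an absence of calls from the general share.

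**Figure D5:**
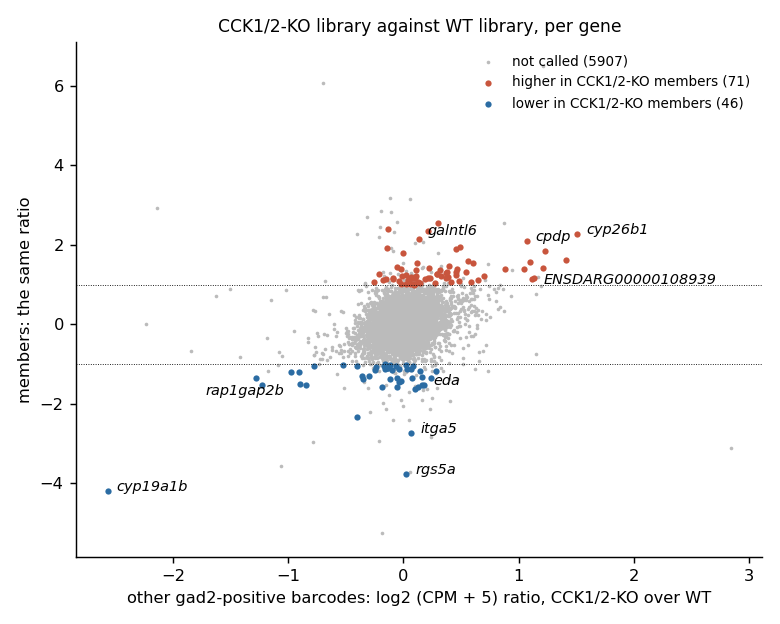
Log2 ratio of (CPM + 5) of the CCK1/2-KO library over the WT library, 1 point per gene tested in members, with the ratio in other gad2-positive barcodes on the x axis and in members on the y axis. Dotted lines mark 2-fold, and red and blue points are the 71 genes called higher and the 46 called lower in CCK1/2-KO members. cyp19a1b, cyp26b1 and cpdp lie off 0 on both axes, whereas itga5 and rgs5a lie near 0 on the x axis.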

How the data were processed

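Summed counts were taken from the deposited matrices, which hold whole-number UMI counts per gene and barcode, made by the authors with Cell Ranger on the GRCz11 build; Seurat is also named in the submitters' processing notes. Each matrix has 32057 features, of which 11398 carry no name of their own and 8368 of these were named from the reference table. Barcodes are 20 bases long. The other edited ligand gene is not reported here.

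Levels are in CPM. In each library UMIs were summed over barcodes, since cells are not replicates, and with 1 library per genotype no p-value was computed. Ratios were called at 2-fold on (CPM + 5), for genes with a mean of 20 CPM or more and also without the 3 highest cells of each group, a setting that understates the change of low genes. The intervals were exact Poisson for levels, exact conditional for ratios, Clopper-Pearson for shares and Katz for ratios of shares, all at 95%. Floors were 3 counts. To compare shares across depths, cells were thinned to 1000 UMIs. Erythrocyte-type barcodes had 50% or more of their UMIs in the erythrocyte list. gad2-positive barcodes were clustered by Leiden at resolution 1 on 2000 variable genes, 30 components and 15 neighbours, without the 3 selecting genes. The share of doublets expected in a library was 0.8% for every 1000 barcodes it held. By this share the highest Scrublet scores marked 7.49% of the deposited WT barcodes and 9.28% of those in CCK1/2-KO. The marked barcodes were kept except in 1 alternative. The size rule and the intervals were tested on simulated Poisson counts, in which all cells of a group shared 1 expression profile. The simulation therefore does not cover genes whose UMIs lie in a few cells, nor mixed barcodes.

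Members and gene lists were chosen with earlier results of these data known. Named genes were the 15 highest and 10 lowest called genes of the members against the other gad2-positive barcodes, ranked by the smaller of the 2 libraries' absolute log2 ratios, the 10 highest and 10 lowest called between the libraries, up to 4 called genes and the defining gene of each list, the 5 genes most like cckbra, the 5 markers and the genes of the cholecystokinin system; others were chosen after their values were seen. Alternatives varied the member rule, UMI and mitochondrial filters, doublets, mixed barcodes, depth, totals, pseudocount, low-level filter and clustering. Restriction to the main cluster was added after seeing the data. Python 3.11.15, numpy 2.4.6, pandas 2.3.3, scipy 1.17.1, scanpy 1.11.5, igraph 0.11.9 and matplotlib 3.10.9 were used.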

Additional observations from a re-analysis of the deposited data

Results flagged for a closer look

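In WT, 9 barcodes with 1000 or more UMIs had 2 or more dkk1b UMIs and no gad2 UMI, and in CCK1/2-KO 1 did, at median depths of 4987 and 35625 UMIs. These barcodes lie outside the comparisons above and carry a signal of the selecting gene. Whether they lack gad2 or only missed it at their depth was not tested.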

How the results depend on the processing

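No paired analysis was possible because each genotype has 1 library. Of 706 alternative values for the named genes, 521 stayed within the interval of the main value, 178 moved outside it with the same sign, and 7 reversed. Many named genes were picked by the size of their ratio, and the alternatives reuse the same cells, so a kept sign is weak support. For the main results 66 alternative values stayed the same and 37 moved. The counts of genes higher in members against the other gad2-positive barcodes stayed within 1.5 times under every alternative run. Precision is limited by 125 members per library and by genes whose UMIs lie in a few cells.

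Between the libraries the cckbra log2 ratio was -1.08 without the 3 highest cells, -1.49 with 3 or more dkk1b UMIs and -1.65 in the main cluster only. Over the other gad2-positive barcodes the CCK1/2-KO ratio was 0.58, 0.50 and 0.55 under the same settings and 2.13 without mixed barcodes, and the WT ratio was 2.34 in the main cluster only. Mixed barcodes carry RNA of macrophages, endothelium, oligodendrocytes, mural cells or erythrocytes.

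Genes higher in CCK1/2-KO members numbered 235 without mixed barcodes, 138 with totals that leave out mitochondrial and the 50 top genes, 135 and 19 with pseudocounts of 1 and 20, 23 and 222 with a mean CPM of 50 and 5, and 118 in the main cluster only. Genes lower numbered 182, 85 and 10, 15 and 129, and 119 under the same settings other than the totals, and 93 with 3 or more dkk1b UMIs. Genes lower in members than in the other gad2-positive barcodes numbered 694 with 3 or more dkk1b UMIs, 274 with a pseudocount of 20, 251 and 722 with a mean CPM of 50 and 5, and 989 in the main cluster only. The mean CPM of 50 and 5 changed the number of genes tested, from 6601 to 3499 and 12074 for members against the others. Between the libraries it changed from 6024 to 3147 and 11178. Counts under these settings therefore do not compare directly with the main counts. The cause of the other changes was not tested.

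The share of barcodes meeting the rule in WT and CCK1/2-KO was 1.33% and 1.08% with 3 or more dkk1b UMIs, 2.22% and 1.89% with 2000 or more UMIs, 3.69% and 2.43% without mixed barcodes, and 0.842% and 0.648% after thinning. The cluster with the most members held 30.4% of them at resolution 2.0, where the main cluster split and the next clusters held 22.4% and 21.2%. Without genes past 2-fold between the libraries it held 49.2%, and the next cluster 30.0%.

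Signs reversed without mixed barcodes for ccka between the libraries (0.71), for mpz (0.43) and plp1b (0.063) in WT members against the others, and for rgs5a between the libraries (0.68). In the main cluster only they reversed for rgs5a (0.47), si:ch211-250g4.3 (-0.33) and zgc:171482 (-0.14).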
